A study of Homo sapiens with 6 samples.

Results

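The ZNF genes encode zinc finger proteins, and 284 of the 515 protein-coding genes whose symbol is ZNF followed by a number were expressed in both colorectal cancer (CRC) lines studied here. A gene was taken when it was protein-coding, carried such a symbol and reached an FPKM (fragments scaled by transcript length and library size) of at least 1 in both Input libraries of the NAT10 RIP table. The members were thus chosen by their Input levels, and those levels are given below as a description. Just inside the limit stood ZNF775 (lower of its Input values 1.02 FPKM), ZNF780B (1.02) and ZNF19 (1.02), and just outside stood ZNF724 (0.965), ZNF708 (0.962) and ZNF555 (0.927). The same limit kept 10350 protein-coding genes in all.

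Most ZNF proteins are built from tandem C2H2 zinc fingers, in which cysteines and histidines hold a zinc ion and each finger reads a few bases of DNA. Many also carry a KRAB domain, which brings in the co-repressor TRIM28 and with it heterochromatin at transposable elements, and many of these genes lie in clusters on chromosome 19 that arose by tandem duplication. NAT10 is the acetyltransferase that writes N4-acetylcytidine (ac4C) on RNA, and the question was which ZNF mRNAs came down with NAT10 and which carried an ac4C peak.

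Both kinds of immunoprecipitation were made from SW480 and DLD-1, both established human CRC lines, wild type and untreated. Wild type does not refer to p53 here, as the paper describes both lines as p53 mutant. RIP pulled down RNA bound to NAT10, acRIP pulled down RNA with an antibody against ac4C, and Input was the total RNA of the line. Each of the 6 combinations of line and RNA fraction was a single library (1 per group), so nothing below could be tested against replicate spread and no p-value was computed. No mock immunoprecipitation was analysed here, so a ratio over Input is not a measure over background binding.

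Among 8 epithelial markers, 7 reached 1 FPKM in both libraries labelled SW480 and 6 in both labelled DLD-1, with CDX1 below 1 FPKM in all 4 and listed at 0 in 3. None of 5 leukocyte, endothelial and fibroblast markers reached 1 FPKM in any library. The libraries did not pair by label. CDX2, a transcription factor of intestinal identity, stood at 4.31 FPKM in RIP and 33.4 in Input under the label SW480. Under the label DLD-1 it stood at 28.3 in RIP and 7.0 in Input, so for this gene each RIP library was nearer to the Input carrying the opposite label. CDX2 was picked as an example, and on the log2(FPKM + 1) scale 5 of the 8 epithelial markers were nearer to the opposite Input in the SW480 RIP and 6 of 8 in the DLD-1 RIP. The others were nearer to their own, such as KRT18 in SW480, at 624 FPKM in RIP against 700 in its own Input and 399.7 in the opposite. Over the ZNF genes, and over other protein-coding genes, the crossing was clearer than in these markers, as set out below. The medians and 2-fold counts of RIP are therefore given by label (RIP over the Input of its own label) and crossed (RIP over the Input of the opposite label), as are most of the genes named.

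Over the 284 ZNF genes, Pearson's r between RIP and Input on the log2(FPKM + 1) scale was 0.76 by label and 0.84 crossed for the SW480 RIP. For the DLD-1 RIP it was 0.72 by label and 0.84 crossed. Other protein-coding genes had 0.80 by label and 0.89 crossed for the SW480 RIP, and 0.77 and 0.90 for the DLD-1 RIP. These correlations describe genes within libraries that share genes and normalisation, and genes are not replicates. At 26 ZNF genes the 2 Inputs differed by at least 2-fold, and at 25 of these (96.2%) the RIP libraries differed in the opposite direction. The same held at 1557 of 1589 other protein-coding genes (98.0%), so the crossing was not particular to ZNF genes. At all 26 ZNF genes the Inputs of the acRIP table differed in the same direction as those of the RIP table. Both sets of Inputs were assigned to the same Input samples, so their match is not an independent check of the labels. Over all 284 genes the Input difference correlated with the RIP difference at r = -0.67 and with the acRIP-table Input difference at r = 0.83. Over other protein-coding genes these values were -0.85 and 0.90. Whether labels were exchanged between libraries cannot be told from these values, and the cause was not tested.

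**Figure D1:**
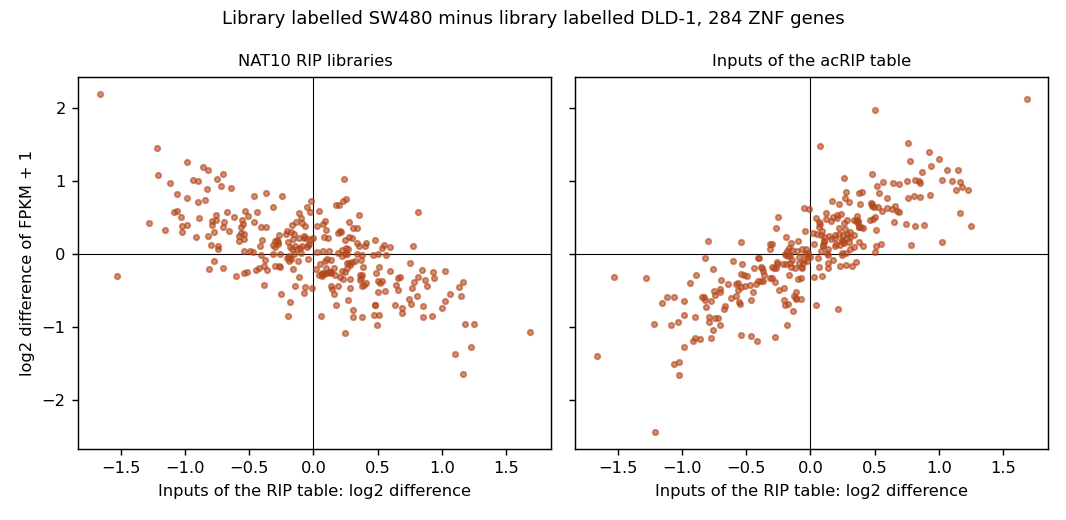
Each point is a ZNF gene, and the x axis gives the log2 difference of FPKM + 1 between the RIP-table Inputs (labelled SW480 minus labelled DLD-1). The y axis gives the same difference between the RIP libraries (left panel, falling, r = -0.67) and between the acRIP-table Inputs (right panel, rising, r = 0.83).

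ZNF704 shows the crossing in a single gene. Its mRNA stood at 17.9 FPKM (RIP) and 4.70 (Input) under the label SW480, against 3.15 and 17.05 under the label DLD-1. The RIP level of each label was thus close to the Input level of the other, and the Inputs of the acRIP table stood at 4.30 (SW480) and 13.0 (DLD-1). The log2 ratio of RIP to Input (1 FPKM added to each) was 1.73 and -2.12 by label, and 0.07 and -0.46 crossed. ZNF143, which binds promoters of protein-coding and small nuclear RNA genes, showed the reverse order. It stood at 8.73 FPKM (RIP) and 28.2 (Input) under the label SW480, and at 22.6 and 11.5 under the label DLD-1. Its ratios by label were -1.59 and 0.92, and crossed -0.36 and -0.31.

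The 12-base pattern that the authors listed within ac4C peaks is CNNCNNCNNCNN, in which N is any base. No genome sequence was used here, so sites could be read only where a peak of a ZNF gene ran into a RefSeq promoter window (250 bases before to 50 after a gene's start, GRCh38). These 4 sites are shown because they are the listed sites of ZNF peaks that could be read and matched to the pattern, each with 9 bases on either side, 5′ to 3′ on the gene's strand. The 4 pattern cytosines are in capitals.
ZNF580: gtatctaccCccCttCcgCccacgcccccg
ZNF232: gggctcactCtcCacCtgCgcaaggactgc
ZNF232: cagggcaccCggCcgCtcCagtccagtcgt
ZNF511: gccgacaggCtgCgcCcgCccgcgcccggg
The ZNF580 stretch is chr19:55643410-55643439 on the plus strand, in a peak that the authors classed as 3'-UTR and that was called in the SW480, DLD-1 and pooled lists. It was read from the promoter window of the neighbouring gene ZNF581. The ZNF232 stretches are chr17:5112087-5112116 and chr17:5112041-5112070 on the minus strand, both in a peak classed as exonic and called in the DLD-1 and pooled lists. The ZNF511 stretch is chr10:133308911-133308940 on the plus strand, in a peak classed as coding sequence (CDS) and called in the DLD-1 and pooled lists. In both lists the ZNF511 peak also overlapped a peak assigned to TUBGCP2 on the other strand, so its source is uncertain. Over all genes, 270 of 275 listed sites in such windows matched the pattern at the listed place and strand, once the offset of the listed positions had been read from the same windows. The pattern is common: on the gene's strand it occurred in 75.1% of 27305 promoter windows and in 205 of the 241 ZNF windows (85.1%), so a match by itself marks little.

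ZNF mRNAs were of modest abundance. Their median level was 4.38 FPKM in the Input labelled SW480 (range 1.02 to 58.2) and 4.32 in the Input labelled DLD-1 (1.02 to 61.1). In the RIP libraries the medians were 4.62 (0.117 to 55.9) and 4.74 FPKM (0.0458 to 50.8), and 8 and 13 of the 284 genes lay below 1 FPKM there. FPKM values fall on whole-number steps of 1 read, and the reads recovered from these steps had medians of 496.5 (RIP) and 232 (Input) per ZNF gene under the label SW480. Under the label DLD-1 the medians were 419.5 and 222. The counting standard error (SE) of a log2 ratio, which holds no biological or library error, had a median of 0.09 in both lines and was at most 0.20 (SW480) and 0.23 (DLD-1).

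The most abundant ZNF mRNAs by mean log2 Input were ZNF768, ZNF703, ZNF598, ZNF146 and ZNF581. ZNF703, a transcriptional cofactor known as an oncogene of luminal breast cancer, stood at 55.9 FPKM (RIP) and 46.2 (Input) under the label SW480, and at 50.8 and 56.2 under the label DLD-1. All 4 of its libraries lay close together. ZNF146, a protein made almost wholly of zinc fingers, stood at 53.1 and 36.2, and at 29.5 and 47.2. ZNF581 stood at 30.0 and 39.4, and at 42.3 and 35.5. For both of these the RIP library was above Input under a label and below it under the other.

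**Figure D2:**
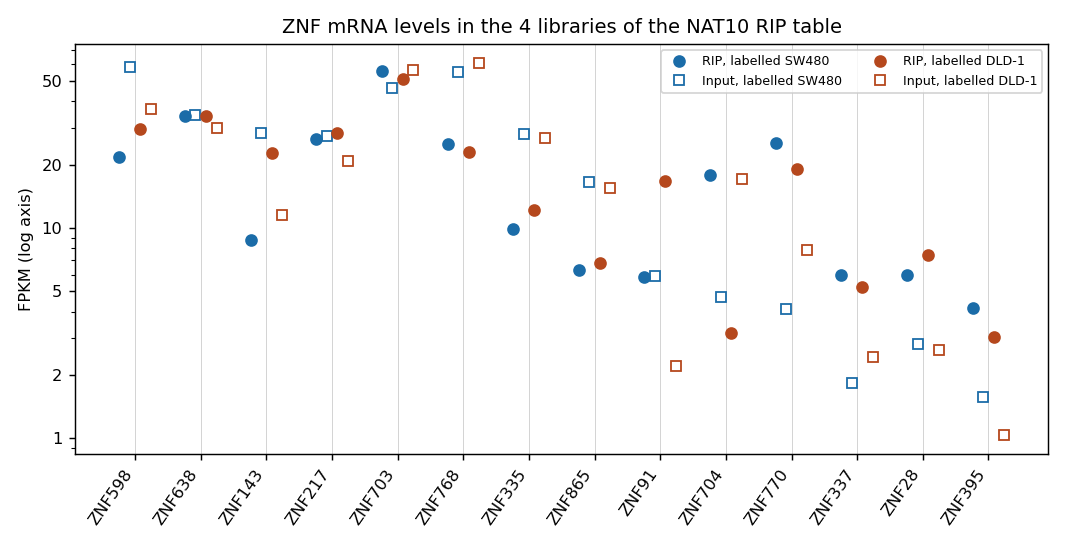
FPKM (log axis) of 14 ZNF genes named in the text, in the RIP (filled circles) and Input (open squares) libraries labelled SW480 (blue) and DLD-1 (orange), 1 library each. ZNF768, ZNF335 and ZNF865 lie below Input under both labels, ZNF770, ZNF337, ZNF28 and ZNF395 above it under both, and ZNF704, ZNF143 and ZNF91 change order with the label.

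NAT10 RIP did not enrich the ZNF mRNAs as a group. Their median log2 ratio of RIP to Input was 0.03 under the label SW480 (95% order-statistic interval over genes -0.09 to 0.13) and -0.02 under the label DLD-1 (-0.13 to 0.09). Crossed, the medians were -0.01 and -0.03. Protein-coding genes outside the group, weighted to the same Input levels, had medians of 0.25 and 0.09, and of 0.18 and 0.12 crossed. The ZNF median was thus lower than that of genes of like Input in each of the 4 pairings of RIP and Input libraries, with differences of -0.22, -0.11, -0.19 and -0.16 on the log2 scale. All 4 rest on the same 4 libraries.

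Few ZNF genes passed 2-fold in either direction. Under the label SW480, 15 genes (5.28%) were at least 2-fold above Input, where 17.4% of all 10350 genes and 20.7% of genes of like Input were. Under the label DLD-1 there were 26 such genes (9.15%), beside 16.7% of all genes and 18.5% of genes of like Input. At least 2-fold below Input were 18 ZNF genes (6.34%) under the label SW480 and 26 (9.15%) under the label DLD-1, beside 9.17% and 12.8% of all genes. Genes of like Input were at 8.73% and 14.1%. Crossed, 14 ZNF genes (4.93%, SW480 RIP) and 12 (4.23%, DLD-1 RIP) were above, beside 10.1% and 10.0% of all genes. In the same pairing 11 (3.87%) and 12 (4.23%) were below, beside 3.93% and 4.51%. The share of ZNF genes past 2-fold above was smaller than the background in all 4 pairings, whereas the share below was smaller by label and close to the background when crossed.

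Under both labels together 72 ZNF genes (25.4%) lay above Input, 69 (24.3%) below it and 143 (50.4%) on opposite sides. Of other protein-coding genes 31.8%, 20.7% and 47.5% did. Crossed, 91 (32.0%) lay above in both, 109 (38.4%) below in both and 84 (29.6%) on opposite sides, beside 47.0%, 34.4% and 18.7% of other genes. The 2 ratios correlated at r = 0.68 crossed instead of 0.04 by label, and for other genes at 0.81 instead of -0.11. Crossed and by label alike, the 2 ratios of a gene are made from the same 4 libraries. ZNF770 was the only ZNF gene (0.35%) at least 2-fold above Input under both labels, where 3.86% of all genes were. At least 2-fold below under both were 5 (1.76%), beside 1.26%. Crossed, 6 (2.11%) were above in both, beside 6.15% of all genes, and 6 (2.11%) below in both, beside 1.97%.

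**Figure D3:**
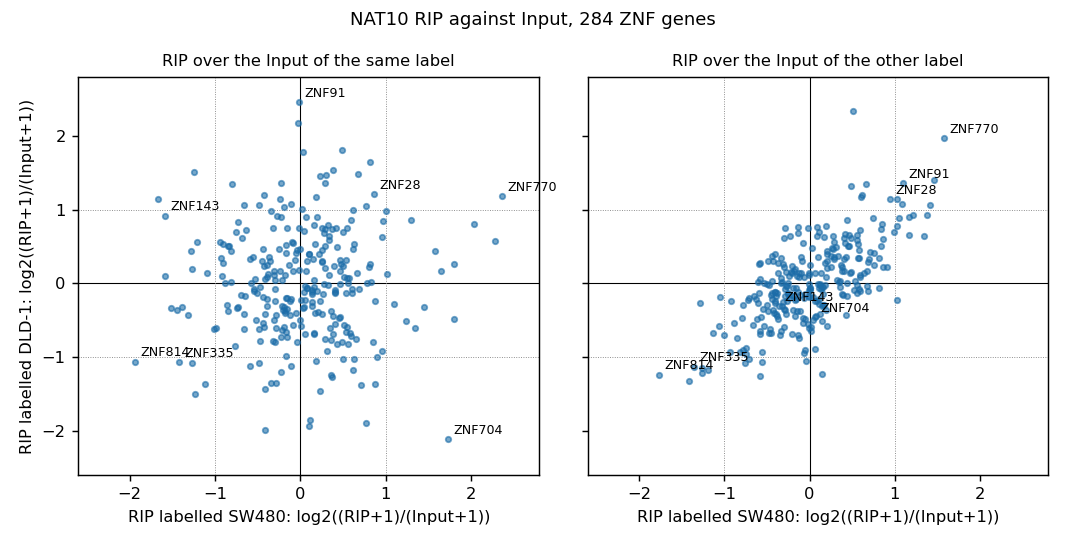
Log2((RIP+1)/(Input+1)) of 284 ZNF genes for the RIP library labelled SW480 (x axis) and DLD-1 (y axis), by label (left) and crossed (right), with dotted lines at 2-fold. The points form a round cloud on the left (r = 0.04) and an elongated one on the right (r = 0.68), and ZNF770 stays at the upper right in both panels.

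The 5 ZNF genes chosen for standing furthest above Input in both lines were ZNF770, ZNF395, ZNF28, ZNF337 and ZNF426, so their ratios are a description. ZNF770 stood at 25.4 FPKM (RIP) and 4.13 (Input) under the label SW480, and at 19.1 and 7.85 under the label DLD-1. Both RIP libraries were above both Inputs. Its log2 ratio was 2.37 ± 0.07 (counting SE) and 1.18 ± 0.06, and 1.58 and 1.97 crossed. ZNF395, a factor linked to the hypoxia response, stood at 4.15 and 1.57 FPKM, and at 3.02 and 1.03. ZNF337 stood at 5.997 and 1.84, and at 5.26 and 2.44. RIP exceeded both Inputs in each of these, with ratios of 1.01 and 0.98 for ZNF395 and of 1.30 and 0.86 for ZNF337. For ZNF28 the FPKM values were 5.97 and 2.82, and 7.41 and 2.64, and for ZNF426 they were 4.57 and 1.83, and 5.51 and 2.63. Against the acRIP-table Input of DLD-1, scaled to the RIP table, ZNF337 fell to -0.96 in the RIP library labelled SW480 and to -1.12 in that labelled DLD-1, so its direction depended on the Input used. Against the same Input ZNF770 stood at 0.58 (SW480) and 0.18 (DLD-1), above 0 but within 2-fold.

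The 5 chosen for standing furthest below Input in both lines were ZNF878, ZNF768, ZNF865, ZNF335 and ZNF814, and these are also the 5 genes at least 2-fold below under both labels. ZNF768, a factor controlled by RAS signalling, stood at 24.9 FPKM (RIP) and 55.2 (Input) under the label SW480, and at 23.1 and 61.1 under the label DLD-1. ZNF335, part of a histone methyltransferase complex and mutated in a form of microcephaly, stood at 9.84 and 28.0, and at 12.2 and 26.7. ZNF865 stood at 6.29 and 16.6, and at 6.79 and 15.6. In each of these both RIP libraries lay below both Inputs, and the crossed ratios were -1.26 and -1.22 (ZNF768), -1.36 and -1.13 (ZNF335), and -1.18 and -1.18 (ZNF865). Against the scaled acRIP-table Inputs these 3 genes stayed below 0 but within 2-fold, from -0.46 to -0.98 over both lines and pairings. ZNF814 stood at 1.88 and 10.0, and at 3.67 and 8.76. Other ZNF genes lie beside ZNF814 on chromosome 19, and its level is uncertain if reads were split among similar genes. Their sequences were not compared here. ZNF878 was at 0.117 and 1.62, and at 0.0458 and 1.97 FPKM, the lowest RIP levels of the group.

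Among ZNF proteins that act on RNA or the ribosome, levels in RIP stayed mostly within 2-fold of Input. The exceptions by label were ZNF598 under SW480 and ZNF385A under DLD-1, and neither passed 2-fold when crossed. ZNF598, the ubiquitin ligase that recognises collided ribosomes, stood at 21.7 FPKM (RIP) and 58.2 (Input) under the label SW480, and 29.4 and 36.9 under the label DLD-1. Both RIP libraries lay below both Inputs, with ratios of -1.38 ± 0.03 and -0.32 ± 0.04, and of -0.74 and -0.96 crossed. ZNF622, a factor of large ribosomal subunit maturation, stood at 16.2 and 14.4, and at 13.8 and 14.4 FPKM. ZNF638, a splicing regulator, stood at 34.1 and 34.4, and at 34.0 and 29.9. All 4 libraries were alike for both. ZNF207, a spindle assembly factor, stood at 8.66 and 8.18, and at 12.1 and 5.98 FPKM, so that both RIP libraries were above both Inputs. ZNF326, ZNF346 and ZNF706 had ratios between -0.39 and 0.40 in both lines. ZNF385A, which binds p53 and some mRNAs, had ratios of 0.62 and -1.18 by label and of -0.08 and -0.47 crossed.

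The 10 transcription factors fixed by name showed no common direction. By label 2 lay above Input in both lines, 2 below in both and 6 on opposite sides, and crossed the counts were 3, 4 and 3. ZNF217, an oncogene amplified in breast cancer, stood at 26.4 FPKM (RIP) and 27.3 (Input) under the label SW480, and at 28.2 and 20.9 under the label DLD-1, a narrow span over 4 libraries. ZNF281 stood at 14.1 and 12.2, and at 17.9 and 7.41, and ZNF148 at 10.0 and 6.79, and at 11.2 and 6.52. RIP was above both Inputs for both genes. Their crossed ratios were 0.84 and 0.51, and 0.56 and 0.65. ZNF24, ZNF131, ZNF292 and ZNF746, the last a repressor that parkin removes, had ratios between -0.44 and 0.21 in both lines.

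The KRAB genes fixed by name differed among themselves. ZNF91, which represses SVA retrotransposons, stood at 5.84 FPKM (RIP) and 5.91 (Input) under the label SW480, and at 16.7 and 2.21 under the label DLD-1. Its ratio was -0.01 ± 0.10 and 2.46 ± 0.12 by label, and 1.09 and 1.36 crossed, so it passed 2-fold in both RIP libraries only in the second pairing. ZNF274, which binds the 3' ends of other ZNF genes, stood at 3.15 and 6.85, and at 4.95 and 4.53. ZNF689 stood at 4.36 and 14.3, and at 5.39 and 7.04. Both lay below Input when crossed, at -0.41 and -0.40 and at -0.59 and -1.26. ZNF445, a keeper of genomic imprints, stood between 1.43 and 1.91 FPKM in all 4 libraries. The other 7 genes fixed by name were not members, since ZNF10, ZNF93, ZNF268, ZNF350, ZNF410, ZNF593 and ZNF711 had an Input below 1 FPKM in at least 1 line.

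The 17 KRAB co-repressor partners expressed here, such as TRIM28, were read beside them. TRIM28 stood at 86.0 FPKM (RIP) and 124 (Input) under the label SW480, and at 89.6 and 135 under the label DLD-1, with RIP below Input in both lines. The median ratio of the 17 was 0.11 and 0.12 by label, and 0.05 and 0.07 crossed. By label 1 and 3 of them were at least 2-fold above Input (17.4% and 16.7% of all genes were) and 3 and 2 at least 2-fold below (9.17% and 12.8%). Crossed, 3 were above in the SW480 RIP and 0 in the DLD-1 RIP (10.1% and 10.0% of all genes), and 0 were below in either (3.93% and 4.51%). The 36 ZBTB genes had medians of 0.12 and 0.13 by label, and of 0.20 and 0.05 crossed. The 17 ZSCAN and ZKSCAN genes had medians of 0.30 and -0.25, which shrank to 0.04 and -0.13 crossed. The 11 ZFP genes had 0.01 and -0.07, and -0.06 and -0.21 crossed.

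ac4C peaks, regions where acRIP exceeded Input, were called by the authors in each line and in a pooled list. In the SW480 list 75 of the 284 ZNF genes held a peak (26.4%, Wilson 95% interval 21.6 to 31.8), where 51.1% of all 10350 genes did. In the DLD-1 list 90 did (31.7%, 26.6 to 37.3), beside 56.8%, and in the pooled list 114 (40.1%, 34.6 to 45.9), beside 63.6%. Protein-coding genes of like Input held a peak in 38.4%, 42.4% and 51.4%. These shares lay above the upper bound of the ZNF interval in each list, so a gap remained at matched Input. Related families varied, without matching for Input. In the SW480, DLD-1 and pooled lists, 36.1%, 22.2% and 47.2% of the 36 ZBTB genes held a peak. For the 17 ZSCAN and ZKSCAN genes the shares were 29.4%, 23.5% and 35.3%. Both families thus also lay below the shares of all genes, whereas the 11 ZFP genes stood at 45.5%, 81.8% and 81.8%. The intervals cover counting error only, since each list rests on 1 acRIP library or on a pool of them.

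The share of hosts climbed with Input level. In the lowest quartile of ZNF genes by Input, 10 of 71 held a peak in the SW480 list (14.1%) and 5 in the DLD-1 list (7.04%), where other genes in the same Input range were at 24.8% and 23.9%. In the second quartile 14 (19.7%) and 22 (31.0%) of 71 did, beside 31.6% and 34.4%. In the third quartile 20 (28.2%) and 28 (39.4%) did, beside 40.5% and 47.1%. In the highest quartile 31 (43.7%) and 35 (49.3%) did, beside 63.0% and 69.9% of other genes, which reach higher levels there. ZNF genes were below the others in each quartile of both lists, but the intervals overlapped in all quartiles of the SW480 list except the highest, and in the middle quartiles of the DLD-1 list.

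**Figure D4:**
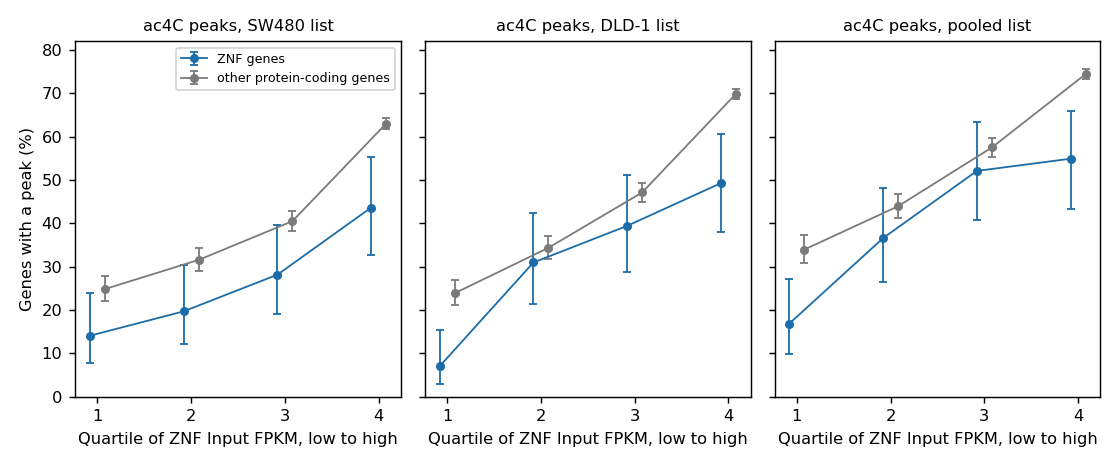
Percent of genes with an ac4C peak in the SW480, DLD-1 and pooled lists, by quartile of the ZNF genes' Input FPKM (71 ZNF genes each, blue) and for other protein-coding genes in the same Input range (grey), with Wilson 95% intervals. Both lines climb from the first quartile to the fourth, and the ZNF line lies below in each list.

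Of the ZNF hosts, 46 held a peak in both lines, 29 in SW480 alone and 44 in DLD-1 alone, while 160 held none in any list. The 46 were 61.3% of the SW480 hosts and 51.1% of the DLD-1 hosts, beside 79.0% and 71.2% for other genes, which are more abundant. Most hosts held 1 peak: 56 of 75 in the SW480 list and 60 of 90 in the DLD-1 list. Hosts in SW480 had a median RIP ratio of 0.04 and the other ZNF genes one of 0.03, and in DLD-1 the values were 0.02 and -0.06. For other protein-coding genes the same medians were 0.22 and 0.14 in SW480, and 0.20 and -0.13 in DLD-1. Crossed, the ZNF hosts stood at -0.13 and the rest at 0.00 in SW480, and at -0.06 and -0.03 in DLD-1. Other genes stood crossed at 0.14 (hosts) and 0.09 (the rest) in SW480, and at 0.19 and -0.03 in DLD-1. Among ZNF genes the RIP medians of hosts and the rest lay within 0.13 of each other in these pairings.

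The peaks of ZNF genes lay mostly in 3'-UTRs in SW480. Of 102 SW480 peaks the authors classed 64 as 3'-UTR (62.7%, 53.1 to 71.5), 25 as CDS (24.5%) and 9 as exon (8.82%). Other genes had 57.0%, 24.99% and 16.9%. Of 127 DLD-1 peaks 52 were classed as 3'-UTR (40.9%, 32.8 to 49.6), 50 as CDS (39.4%) and 22 as exon (17.3%), beside 43.2%, 39.8% and 15.4%. The 3'-UTR share was higher in SW480 than in DLD-1 for ZNF genes and for other genes alike, and the value of other genes lay within the ZNF interval for each of these classes except exon in SW480. The 5'-UTR held 3 ZNF peaks in each line, 2.94% (1.01 to 8.29) in SW480 beside 0.97% for other genes.

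**Figure D5:**
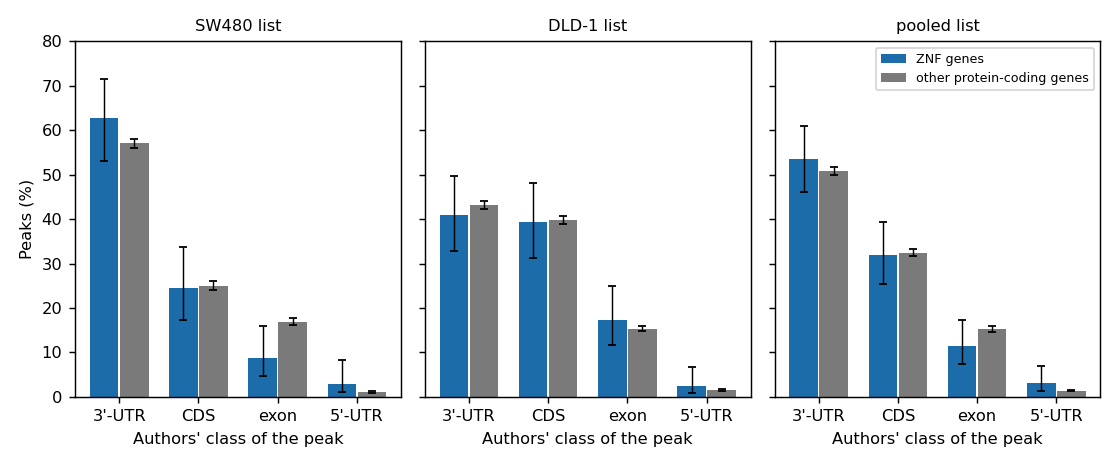
Percent of ac4C peaks by the authors' class (3'-UTR, CDS, exon, 5'-UTR) in the SW480, DLD-1 and pooled lists, for ZNF genes (blue; 102, 127 and 166 peaks) and other protein-coding genes (grey), with Wilson 95% intervals. The grey 3'-UTR and CDS bars lie within the blue intervals in the SW480 and DLD-1 lists, the blue exon bar in SW480 is lower than the grey (8.82 against 16.9%), and the 3'-UTR bar is taller in the SW480 list than in the DLD-1 list.

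ZNF peaks were seldom split over a splice junction. Of the SW480 peaks 11 (10.8%) and of the DLD-1 peaks 15 (11.8%) held more than 1 block, beside 27.7% and 41.5% for other genes. Many ZNF genes carry their whole finger array and 3'-UTR in a single last exon. The peaks had a median length of 181 bases in both lines, beside 210 and 211. Their median fold enrichment was 17.7 (SW480) and 13.4 (DLD-1), beside 19.6 and 14.7. A listed pattern site lay in 53 of the 102 (52.0%) and 70 of the 127 (55.1%), beside 55.4% and 54.4%, shares close to each other. Of the ZNF peaks 10 in each line overlapped a peak assigned to another gene, on either strand, and their source is uncertain.

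Part of the ZNF peaks coincided between lines. Among 102 ZNF peaks in the SW480 list, 39 (38.2%, 29.4 to 47.9) met a DLD-1 peak on the same strand by at least 1 base, beside 57.6% for other genes, which are more abundant. Among 127 in the DLD-1 list, 38 (29.9%, 22.6 to 38.4) met an SW480 peak, beside 35.7%. The overlapping peaks with the highest smaller fold lay in ZNF276, ZNF770, ZNF580, ZNF205 and ZNF207. The ZNF770 peak in the 3'-UTR, chr15:34978401-34978670 in SW480, had a fold of 205 there and of 29.1 in DLD-1. The ZNF205 peak in the CDS, chr16:3120159-3120398 in SW480, had 99.9 and 25.2. The ZNF276 peak in the 3'-UTR (chr16:89740304-89740873) had 48.9 and 34.6, and the ZNF580 peak in the 3'-UTR (chr19:55643050-55643439) 27.1 and 65.3. The ZNF580 peak held 2 listed pattern sites in SW480 and 8 in DLD-1, not all of which are printed above. The ZNF207 peak in the 3'-UTR (chr17:32369711-32370191) had 28.1 and 22.8. ZNF770 was thus above both RIP-table Inputs in NAT10 RIP and held a peak in the same place in both lines. Against the acRIP-table Input of DLD-1 it stayed within 2-fold, as given above. In both lines its peak also overlapped a peak assigned to AC114546.3 on the other strand, so the source of the peak is uncertain. By contrast, ZNF276 and ZNF205 lay slightly below Input in both lines, at ratios from -0.33 to -0.10.

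The most peaks in the pooled list were in ZNF395 with 5, followed by ZNF544 and ZNF207 with 4 each. A further 8 genes tied at 3, of which ZNF791 and ZNF704 had the highest summed fold. All 5 pooled peaks of ZNF395 were classed as 3'-UTR, with folds of 4.53 to 128, and it held 3 peaks in each line. ZNF704 held 4 peaks in the SW480 list, all classed as 3'-UTR with folds of 8.33 to 81.2, and none in the DLD-1 list, although its Input was higher under the label DLD-1 in both tables. ZNF207 held 2 peaks in SW480 and 4 in DLD-1, where the highest, in the CDS, reached a fold of 171.

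Chromosome 19 held 109 of the 284 ZNF genes. Of these 28 (25.7%) held a peak in SW480 and 27 (24.8%) in DLD-1, and of the 175 elsewhere 47 (26.9%) and 63 did. The intervals of the DLD-1 shares were 17.6 to 33.6% and 29.3 to 43.3% and overlap. The chromosome 19 genes were less abundant, with a median Input of 3.43 against 5.12 FPKM under the label SW480, and its part in the gap was not tested. The RIP medians were -0.09 and 0.11 on chromosome 19 and 0.08 and -0.09 elsewhere, and crossed 0.01 and -0.04 against -0.06 and -0.03. The gap between chromosome 19 and the rest was thus smaller in the crossed pairing. Pattern sites in peaks were denser on chromosome 19, at 7.47 (SW480) and 7.49 (DLD-1) sites per kb of peak against 4.48 and 5.81 elsewhere. The chromosome 19 values rest on 38 and 36 peaks, and single peaks held up to 9 and 8 sites. Near-identical pairs of listed peaks, in ZNF524 on chromosome 19 and ZNF623 elsewhere, were counted as separate peaks here and in all peak totals.

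Along chromosome 19, 2 groups of neighbours were picked after their values were seen. ZNF28, ZNF468 and ZNF888, which start at 52797408, 52838010 and 52904415 (GRCh38), had ratios of 0.87 and 1.21, 0.82 and 1.65, and 0.68 and 1.49. Crossed, they were at 0.94 and 1.14, 1.42 and 1.06, and 1.09 and 1.07. ZNF320, between them, was at -0.75 and 0.70, and at 0.01 and -0.06 crossed. Reads that fit several of these neighbours would make their levels uncertain, and their sequences were not compared here. Further along, the 10 ZNF genes from ZNF628 to ZNF71 all lay below Input under the label SW480 and 7 did under the label DLD-1, with medians of -0.55 and -0.59. Crossed, 10 and 8 lay below, with medians of -0.56 and -0.50, and the crossed SW480 count includes ZNF524 at -0.0008. Of all 284 ZNF genes 147 (SW480) and 140 (DLD-1) lay above Input by label, and 136 and 130 crossed. ZNF865 is in this run of 10, and 8 of the 10 held an ac4C peak in the pooled list, beside 40.1% of all ZNF genes and 63.6% of all genes. These shares are not matched for Input. In the highest Input quartile 54.9% of ZNF genes and 74.5% of other genes held a pooled peak.

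A RefSeq promoter window was found for 241 of the ZNF genes. In the tertile with the highest GC content (80 genes, 66.3 to 84.7% GC) the median RIP ratio was 0.04 under the label SW480 and -0.32 under the label DLD-1, and -0.18 and -0.13 crossed. In the tertile with the lowest (82 genes, 43.7 to 59.3% GC) the medians were -0.08 and 0.14, and 0.01 and -0.01 crossed. The GC-rich tertile was lower in 3 of the 4 pairings of RIP and Input libraries. It was also more abundant, with median Inputs of 5.32 (SW480) and 6.52 FPKM (DLD-1) against 3.80 and 2.93. The tertiles were not matched for Input, and its part in the difference was not tested. The window is not transcribed over most of its length, and GC content of the mRNA was not tested.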

How the data were processed

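The 6 libraries (Input, RIP and acRIP in SW480 and DLD-1, 1 each) were analysed from tables deposited by the authors. The deposited RIP table gives FPKM per gene. A second deposited table of acRIP Inputs names no unit and was read as FPKM. The deposited peak lists (SW480, DLD-1, pooled) give the fold enrichment as a ratio over Input and a p-value per peak, and also the class of position and the sites of a pattern. The submitters' processing notes name cutadapt 2.5 and HISAT2 2.1.0, and GRCh38 among several builds. The peak caller and its thresholds are not given in the sources used here. Columns with the authors' own RIP to Input ratios were not used.

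FPKM were compared as log2((RIP + 1)/(Input + 1)), which understates changes of low genes, and called at 2-fold. Whole reads were recovered from FPKM steps (tolerance 0.001 reads), giving depths relative to RIP SW480 of 0.493 (Input SW480), 0.850 (RIP DLD-1) and 0.456 (Input DLD-1). Where all reads of a gene share a factor, the recovered number is too small and the counting SE too large. Genes of like Input were the other protein-coding genes weighted to the ZNF genes' distribution over bins of 0.5 in mean log2 Input. Shares carry Wilson 95% intervals and medians exact order-statistic intervals over genes. Positions and promoter sequences came from RefSeq (GRCh38), and 284 of 284 genes were matched by symbol or synonym. The steps were tested on simulated data. Python 3 with pandas, NumPy, SciPy and matplotlib was used.

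The ZNF genes and the lists were chosen with earlier results of these data known. The genes named were those fixed by role, the 5 highest and 5 lowest ratios with the same sign in both lines, the 5 most abundant, the 5 with most pooled peaks (ties by summed fold), the 5 highest shared peaks, and 3 genes on each side of the Input limit. Markers were read as a check of the lines. Alternatives were other pseudocounts, filters, Inputs, peak thresholds and overlaps. KRAB domains were not classed from protein sequence, which was not used here.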

Additional observations from a re-analysis of the deposited data

Results flagged for a closer look

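The 3 ZNF genes ZNF704, ZNF140 and ZNF367 stood at least 2-fold above Input under 1 label and at least 2-fold below it under the other. They are 1.06% of the 284 ZNF genes, where 6.66% of other protein-coding genes did so. The log2 ratio under the label SW480 minus that under the label DLD-1 was 3.85 for ZNF704, -2.81 for ZNF140 and -2.76 for ZNF367. With 1 library per group the difference was not tested. Crossed (RIP over the Input of the opposite label), the ratios were 0.07 and -0.46 for ZNF704, -0.49 and -0.02 for ZNF140, and 0.44 and -0.18 for ZNF367, none past 2-fold.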

How the results depend on the processing

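Without replicates, a median or share was called moved when an alternative left its 95% interval and a count when it changed over 1.5 times. No paired analysis was possible because each group held 1 library. Of 80 recomputed summary values 39 stayed within these limits, and the ZNF median stayed below that of genes of like Input with the other Inputs, relative-length bins, the pseudocount of 0.1 and the stricter Input. That difference was not recomputed under the other alternatives. The median log2 ratio moved to -0.10 (SW480) and -0.13 (DLD-1) at an Input of at least 3 FPKM, to -0.15 (SW480) when centred on all protein-coding genes (whose own median was 0.18), and to 0.11 (DLD-1) on chromosome 19 alone, above the 0.09 of genes like all ZNF genes in Input. At that stricter Input the difference from genes of like Input was -0.34 and -0.27. Genes 2-fold below Input in SW480 numbered 30 with a pseudocount of 0.1, 29 when centred and 11 crossed, where DLD-1 had 12 above and 12 below. Against the crossed acRIP-table Input, 16 of 42 named ratios in SW480 changed sign, 9 of them to negative; among those past 2-fold by label these were ZNF337 (-0.96) and ZNF704 (-0.14). In DLD-1, 11 changed sign, and over the acRIP-table Input of the same label 16 (SW480) and 10 (DLD-1) did, ZNF337 in DLD-1 moving from 0.86 to -1.12. For the 42 named genes the Input used moved 60 of 84 ratios beyond counting error when crossed. The acRIP-table Input of the same label moved 74, and that of the other label moved 68 and reversed 2 more.

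Host shares of ZNF genes and of genes of like Input, in the SW480, DLD-1 and pooled lists, became 11.97 and 18.3%, 9.51 and 19.99%, and 15.1 and 26.4% with only peaks of p under the list median. With only folds at or above the median they became 13.7 and 22.2%, 17.3 and 26.0%, and 24.6 and 34.6%. At an Input of at least 3 FPKM they became 34.9 and 48.0%, 41.4 and 55.4%, and 51.3 and 63.5%. ZNF genes stayed lower in all of these. The 3'-UTR share of ZNF peaks became 72.2, 57.6 and 62.3% (p under the median) and 76.7, 51.7 and 62.5% (fold at or above it), and the CDS share became 21.2% (DLD-1, p) and 16.3, 26.7 and 25% (fold). With an overlap of 50% of each peak, 25.5% of SW480 and 20.5% of DLD-1 peaks were shared. Bins of Input crossed with relative length, and the chromosome 19 split, were chosen after seeing the data. Bins crossed with transcript length were not run, as no table used here gives it. With 1 library per group, counting error is the only error known.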

Other observations

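ZNF593, a ribosome biogenesis factor fixed by name, was listed at 0 FPKM in both Inputs of the RIP table and at 37.0 and 38.6 FPKM in RIP of SW480 and DLD-1. In the acRIP table its Inputs stood at 39.8 and 44.1. No fold is given for it. ZNF711 stood at 5.92 FPKM in the Input labelled SW480 and was listed at 0 in the Input labelled DLD-1, against 0.188 and 7.95 in the RIP libraries of these labels.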
